A study of Mus musculus with 20 samples.

Results

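The genes described here are erythroid genes, expressed mainly in red cell precursors. The set of 9 symbols was Hba-a1, Hba-a2, Hbb-bs, Hbb-bt, Alas2, Slc4a1, Epb42, Ahsp and Klf1, and members were taken as the rows of the gene table whose Ensembl identifier maps to them. Of 54446 gene rows, 8 were matched. Ahsp was not analysed here. RNA was sequenced from tibiae of male C57BL/6J mice aged 3 months, in 20 libraries. The design has 4 groups of 5 libraries each. Unloaded tibiae of mice injected subcutaneously with water are called Vehicle_Ctrl, and loaded tibiae of water-injected mice are called Vehicle_Load. Unloaded tibiae of mice injected subcutaneously with dexamethasone (DEX, a synthetic glucocorticoid) at 1 mg/kg are called DEX_Ctrl, and loaded tibiae of DEX-injected mice DEX_Load. Injections were given for 5 days, and the left tibia of a loaded pair was compressed along its axis at -13 N for 40 cycles a session, on days 1 and 3 by the labels. The study's methods give a further session in the week than the labels do, and tibiae were frozen some hours after the last one. The contralateral tibia, not a tibia of a separate animal, served as the unloaded control. The study elsewhere calls the mouse material cortical bone with periosteum, and no step that removes marrow is given for these libraries.

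Red cells are made in the bone marrow. Erythroblasts, under the control of erythropoietin and of the transcription factors Gata1 and Klf1, fill with haemoglobin, a tetramer of alpha and beta globin chains that each hold a haem group. Alas2 is the erythroid enzyme that starts haem synthesis, Slc4a1 is the anion exchanger band 3 of the red cell membrane, and Epb42 is protein 4.2, which ties band 3 to the membrane skeleton. Glucocorticoids are known to act on erythroid progenitors and on other marrow lineages.

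The members lie on 5 chromosomes of GRCm38. The alpha globin genes Hba-a1 (ENSMUSG00000069919.7, chromosome 11, 32283511 to 32284465) and Hba-a2 (ENSMUSG00000069917.7, chromosome 11, 32296489 to 32297298) are neighbouring copies on the plus strand. The beta globin genes Hbb-bs (ENSMUSG00000052305.6, chromosome 7, 103826534 to 103828096) and Hbb-bt (ENSMUSG00000073940.3, chromosome 7, 103812524 to 103813996) are neighbouring copies on the minus strand. Slc4a1 (ENSMUSG00000006574.15) lies on chromosome 11 at 102348824 to 102366203, Alas2 (ENSMUSG00000025270.13) on chromosome X at 150547375 to 150570638, Epb42 (ENSMUSG00000023216.13) on chromosome 2 at 121017891 to 121037072, and Klf1 (ENSMUSG00000054191.8) on chromosome 8 at 84901928 to 84905291.

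The copies of each globin can share reads, which bears on every value given for a single copy. The coding sequence of the first transcript of Hba-a1 differs from that of Hba-a2 at 1 of 429 bases (C381T), and that of Hbb-bs from Hbb-bt at 1 of 444 bases (C417T). In each substitution the base of the gene named first stands before the position, which is counted from 1 at the A of the start codon. The stretch around each difference is printed with the differing base in capitals, since reads from the rest of the coding sequence fit both copies.
Hba-a1: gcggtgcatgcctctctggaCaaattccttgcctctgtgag
Hba-a2: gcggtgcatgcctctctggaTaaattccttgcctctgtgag
Hbb-bs: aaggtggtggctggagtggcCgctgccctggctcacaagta
Hbb-bt: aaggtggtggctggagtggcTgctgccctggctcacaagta
The alpha stretch covers coding bases 361 to 401 and the beta stretch bases 397 to 437. Outside the coding sequence the copies differ more. Of all windows of 50 bases in the transcript, 67.5% of those of Hba-a1 and 86.9% of those of Hba-a2 occur in the other copy, against 65.8% for Hbb-bs and 58.3% for Hbb-bt. A read from the shared windows is divided between copies by the model that estimates the counts, so a level of 1 copy is less certain than the sum of both.

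The promoters are shown because the members varied together. RefSeq (GRCm38.p6) gives a promoter for 7 of the 8 members. The gene spans given above come from GENCODE, and the RefSeq starts of Hba-a1, Hbb-bs, Hbb-bt and Alas2 lie inside them, so each printed stretch overlaps its gene's span. The promoters of Hba-a1 and Hba-a2 are identical over 297 of 297 bases compared after a shift of 3 bases, so 1 of them is printed beside both beta globin promoters and that of Alas2. Capitals mark GATAA (the core bound by GATA factors), CCNCNCCC (the CACCC box bound by Klf1 and related factors), CCAAT and TATAAA, searched on both strands in the 250 bases before the start site.
Hba-a1 (chr11:32283422-32283671, plus strand): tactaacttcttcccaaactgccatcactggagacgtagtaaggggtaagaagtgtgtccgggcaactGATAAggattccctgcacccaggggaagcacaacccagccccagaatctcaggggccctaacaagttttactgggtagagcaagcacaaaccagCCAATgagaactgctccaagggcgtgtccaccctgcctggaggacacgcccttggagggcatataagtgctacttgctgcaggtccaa
Hbb-bs (chr7:103827929-103828178, minus strand): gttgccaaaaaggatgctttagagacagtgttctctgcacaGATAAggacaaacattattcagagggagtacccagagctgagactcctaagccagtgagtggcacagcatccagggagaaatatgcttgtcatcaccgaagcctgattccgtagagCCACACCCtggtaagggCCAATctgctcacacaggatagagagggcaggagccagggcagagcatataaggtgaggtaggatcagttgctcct
Hbb-bt (chr7:103813924-103814173, minus strand): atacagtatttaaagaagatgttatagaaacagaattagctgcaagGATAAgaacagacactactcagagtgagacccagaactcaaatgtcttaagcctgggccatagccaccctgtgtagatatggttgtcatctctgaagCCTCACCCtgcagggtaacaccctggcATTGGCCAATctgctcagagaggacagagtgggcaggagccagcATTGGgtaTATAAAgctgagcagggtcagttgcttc
Alas2 (chrX:150547167-150547416, plus strand): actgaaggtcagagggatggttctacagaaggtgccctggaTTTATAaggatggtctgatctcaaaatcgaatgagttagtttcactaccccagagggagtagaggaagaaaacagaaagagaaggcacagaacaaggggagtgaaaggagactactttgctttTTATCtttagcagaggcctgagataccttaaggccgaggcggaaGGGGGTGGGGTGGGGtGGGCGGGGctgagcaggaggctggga
GATAA occurred in 7 of 7 member promoters and in 22.6% of 32851 mouse promoters of the same length. CCNCNCCC occurred in 3 of 7 (Hbb-bs, Hbb-bt and Alas2) against 45.9% of all, CCAAT in 5 of 7 against 33.8%, and TATAAA in 3 of 7 against 12.4%. In Alas2 several CCNCNCCC matches overlap each other, and in Hbb-bt a CCAAT match on each strand adjoins the other. Short motifs are common in promoters, and a match here is a description of letters.

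Library totals ran from 4641437 to 13032018 counts. Levels are given as counts scaled to library size (CPM) after TMM normalization, which rescales libraries so that most genes agree. Its factors were 0.834 to 0.983 in vehicle libraries and 0.9995 to 1.41 in DEX libraries. A higher factor lowers every CPM value of a library. One library, unloaded DEX replicate 4, is shown but is in no group mean and no main fit. The reason is that the study removed a library it called DEX-4 and showed fewer unloaded than loaded DEX values. Unloaded DEX replicate 4 does enter values over all 20 libraries, the correlations between genes and some alternative fits. Vehicle libraries are listed in the order 1, 2, 4, 5 and 6, and DEX libraries in the order 1 to 5. In each vehicle group the last is a column of the count table numbered 6, a number that no label has, while the labels' number 3 has no column, so it was placed by its group name only. Bone was plainly present, since the 12 osteoblast and osteocyte markers together held 43082 to 147191 CPM in Vehicle_Ctrl. Reads over 1731 olfactory and vomeronasal receptor genes, taken as a measure of background, ranged from 228 to 1238 CPM in vehicle libraries and from 789 to 8611 CPM in DEX libraries. The highest was loaded DEX replicate 4, which also had the lowest total.

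The globin copies were the most abundant members, and the 4 of them together took 0.323% to 1.20% of all counts of a library. Hba-a2, an alpha globin, was measured at 4341, 3194, 2394, 2841 and 3876 CPM in Vehicle_Ctrl and at 1904, 4049, 3248, 3294 and 3574 CPM in Vehicle_Load. It was measured at 3939, 4039.8, 2247, 1891 and 1203 CPM in DEX_Ctrl and at 3749, 3209.9, 2233, 1356 and 1302 CPM in DEX_Load. Loaded vehicle replicate 1 lay well under the other 4 of its group, each DEX group held values from low to high, and all groups overlapped.

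Hba-a1, the other alpha copy, was measured at 3277, 3326, 1232, 2816 and 1695 CPM in Vehicle_Ctrl, at 726, 2169, 1829, 2436 and 1645 CPM in Vehicle_Load, at 3285, 2345, 1359.6, 1284 and 725 CPM in DEX_Ctrl and at 3678, 1668, 1224, 1277 and 809 CPM in DEX_Load. It was under Hba-a2 in every library but vehicle unloaded replicate 2. The beta globin Hbb-bs was measured at 1440.1, 763, 1503, 1378 and 2059 CPM in Vehicle_Ctrl, at 1196, 2479.9, 1978, 1436 and 2031 CPM in Vehicle_Load, at 1500.3, 2568, 1801, 1217 and 803 CPM in DEX_Ctrl and at 1383, 1996, 1532, 325 and 933 CPM in DEX_Load. The lowest of these 20 values, loaded DEX replicate 4, was 7.90 times under the highest, the widest range of any member. The other beta copy, Hbb-bt, was measured at 1546, 1323, 802, 1535 and 1084 CPM in Vehicle_Ctrl, at 559, 1222, 1121, 1555 and 978 CPM in Vehicle_Load, at 1502, 1287, 855, 677 and 455 CPM in DEX_Ctrl and at 1514, 998, 829, 493 and 524 CPM in DEX_Load. The 5 libraries highest in Hbb-bt (unloaded vehicle replicates 1 and 5, loaded vehicle replicate 5, unloaded DEX replicate 1 and loaded DEX replicate 1) held none of the 5 highest in Hbb-bs.

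**Figure D1:**
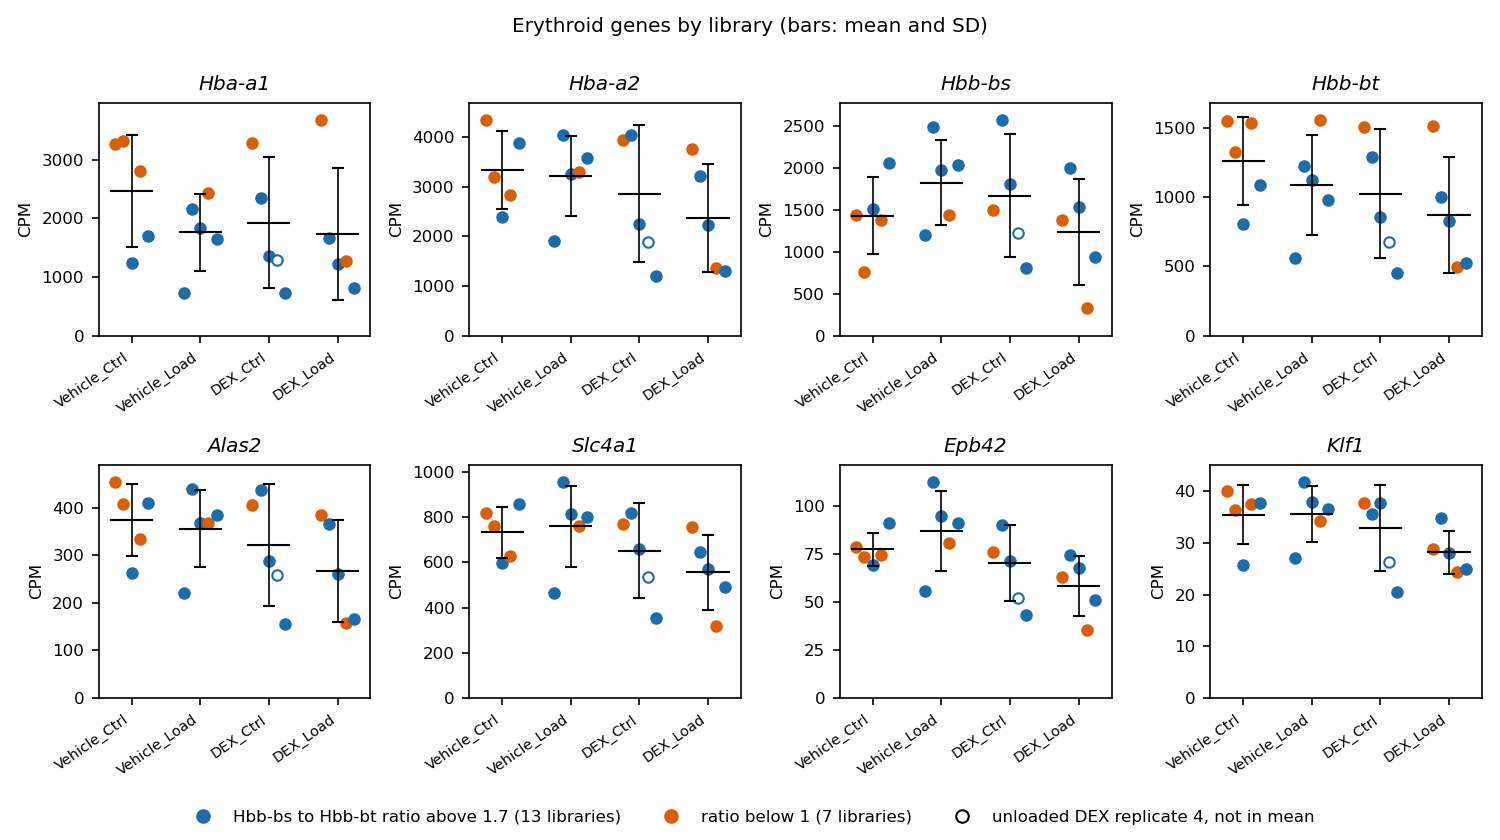
Level of each of the 8 matched erythroid genes in CPM (vertical axis, from 0) in the 20 libraries, by group, with the mean and SD over the libraries compared (n = 5, or n = 4 for DEX_Ctrl); the open point is unloaded DEX replicate 4. Every pair of groups overlaps for every gene, and the 7 orange libraries, whose Hbb-bs count is under their Hbb-bt count, include the lowest Hbb-bs value, 325 CPM.

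The balance between the copies fell into separate ranges that followed no group. The ratio of Hbb-bs to Hbb-bt counts was 0.577 to 0.999 in 7 libraries and 1.76 to 2.14 in the other 13, with none between. The 7 libraries were unloaded vehicle replicates 1, 2 and 5, loaded vehicle replicate 5, unloaded DEX replicate 1, and loaded DEX replicates 1 and 4. The same 7 had the highest ratios of Hba-a1 to Hba-a2, at 0.740 to 1.04 against 0.381 to 0.679. They also had the highest ratios of alpha to beta globin counts, at 1.92 to 3.22 against 1.36 to 1.77.

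Genes outside the red cell lineage divided the libraries in the same way. The count ratio of the mitochondrial genes mt-Nd2 and mt-Nd1, which are encoded side by side and are used by all cells, was 0.761 to 0.907 in the 7 libraries and 0.465 to 0.560 in the 13. The labels name no batch, kit lot or run that would tell the sets apart, and the cause was not tested. The sets are unequally spread over the groups, with 3 of 5 libraries of Vehicle_Ctrl in the set of 7 against 1 of Vehicle_Load, 1 of DEX_Ctrl and 2 of DEX_Load. The globin values are therefore also given with the set as a covariate and in the larger set alone, both chosen after seeing the data. The fits in the larger set draw on 12 of the 13 libraries, since unloaded DEX replicate 4 stays out of them.

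**Figure D2:**
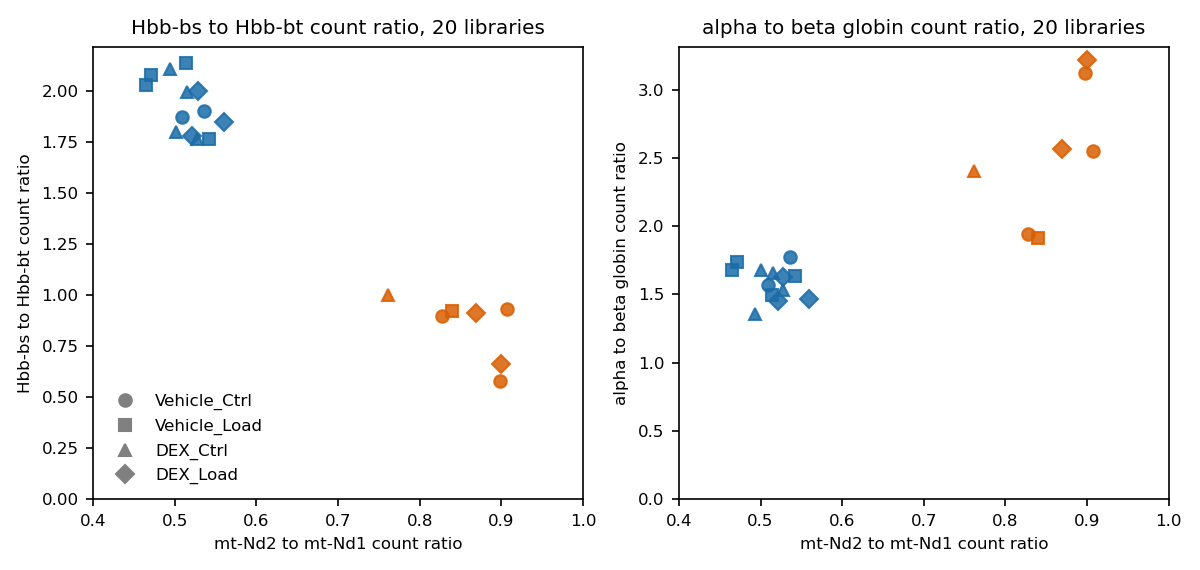
Ratio of Hbb-bs to Hbb-bt counts (left) and of alpha to beta globin counts (right) in each of the 20 libraries against the ratio of mt-Nd2 to mt-Nd1 counts, all without unit, with a marker shape for each group. The 7 orange libraries have mitochondrial ratios of 0.761 to 0.907 and Hbb-bs to Hbb-bt ratios of 0.577 to 0.999, apart from the 13 blue libraries on every axis.

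Alas2, the first enzyme of haem synthesis in red cells, was measured at 453, 407, 262, 334 and 409 CPM in Vehicle_Ctrl, at 220.1, 439, 368, 367 and 384 CPM in Vehicle_Load, at 406, 437, 288, 258 and 155 CPM in DEX_Ctrl and at 385, 365, 261, 156 and 166 CPM in DEX_Load. Unloaded and loaded DEX replicates 5 and loaded DEX replicate 4 were the lowest 3, and they lay under all 10 vehicle libraries. Alas2 is a single gene with no near-identical copy, and its order of libraries was close to that of Hba-a2 (Spearman 0.96 over 20 libraries).

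Slc4a1, band 3, was measured at 818, 760.0, 597, 629.9 and 858 CPM in Vehicle_Ctrl, at 466, 956, 814, 763 and 803 CPM in Vehicle_Load, at 772, 821, 660.5, 536 and 354 CPM in DEX_Ctrl and at 755, 647, 569.6, 317 and 492 CPM in DEX_Load. Epb42, its partner in the membrane skeleton, was measured at 78.9, 73.6, 69.1, 74.7 and 91.3 CPM in Vehicle_Ctrl, at 55.9, 113, 94.7, 81.1 and 91.3 CPM in Vehicle_Load, at 76.0, 90.3, 71.6, 52.1 and 43.5 CPM in DEX_Ctrl and at 62.9, 74.6, 68.0, 35.6 and 50.9 CPM in DEX_Load. For both genes, all 5 DEX_Load values lay under the median of Vehicle_Load, but the low Vehicle_Load replicate 1 kept the groups overlapping.

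Klf1, the erythroid Krüppel-like factor that switches on globin and membrane genes, was the least variable member, with a range of 2.03 times over the 20 libraries. It was measured at 40.2, 36.4, 25.7, 37.6 and 37.9 CPM in Vehicle_Ctrl, at 27.2, 41.8, 37.9, 34.3 and 36.6 CPM in Vehicle_Load, at 37.8, 35.6, 37.7, 26.4 and 20.6 CPM in DEX_Ctrl and at 28.9, 34.9, 28.0, 24.4 and 25.0 CPM in DEX_Load. Unloaded vehicle replicate 4, loaded vehicle replicate 1 and unloaded DEX replicate 5 were each the lowest of their group, the DEX_Load values lay close together, and all groups overlapped.

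Divided by exon length, the median levels over the 20 libraries were 4800 CPM per kilobase for Hba-a2, 2071 for Hba-a1, 1914 for Hbb-bs and 1481 for Hbb-bt. They were 152 CPM per kilobase for Alas2, 145 for Slc4a1, 23.0 for Klf1 and 13.7 for Epb42. The steps from Hba-a2 to Hba-a1, from Hbb-bt to Alas2, from Slc4a1 to Klf1 and from Klf1 to Epb42 held in 20 of 20 libraries. Alas2 exceeded Slc4a1 in 8 of 20 libraries, and these neighbours did not differ beyond their spread. The other steps followed the library sets. Hba-a1 exceeded Hbb-bs in 7 of 7 libraries of the smaller set and in 0 of 13 of the larger, while Hbb-bs exceeded Hbb-bt in 0 of 7 and in 13 of 13, so the medians over 20 libraries do not order these genes in either set.

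Loading in vehicle-treated mice asks which transcripts respond to mechanical stress without the drug. None of the 8 erythroid genes passed the threshold, an adjusted p under 0.05 over all genes tested with edgeR's quasi-likelihood test. Over all genes the same test called 0%, and 9.86% had an unadjusted p under 0.05, as did 0 of the 8 members. DESeq2 also called 0 members, while it called 141 genes over all. In bulk RNA, fewer erythroid cells and less of a transcript per cell cannot be told apart, here and in each comparison below.

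The largest fitted difference was that of Hba-a1, whose mean was 1761 ± 654 CPM (SD, n = 5) after loading, against 2469 ± 954 CPM (SD, n = 5) without it. Its log2 fold change was -0.53 (standard error 0.35, adjusted p = 0.608). Hbb-bs lay on the other side of 0, at 0.33 (standard error 0.245, adjusted p = 0.645). These are the copies that divided the library sets, and with the set as a covariate the log2 fold changes were -0.054 for Hba-a1 and 0.16 for Hbb-bs. In the larger set alone, 4 loaded against 2 unloaded, they were 0.12 and 0.11. Hba-a2 was at -0.012 and 0.025 in these fits, and Hbb-bt at 0.053 and 0.039. The remaining members had log2 fold changes of -0.24 (Hbb-bt), -0.10 (Alas2), -0.084 (Hba-a2), -0.033 (Klf1), 0.021 (Slc4a1) and 0.14 (Epb42). The 95% interval was -0.35 to 0.29 for Klf1 and -0.38 to 0.42 for Slc4a1.

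**Figure D3:**
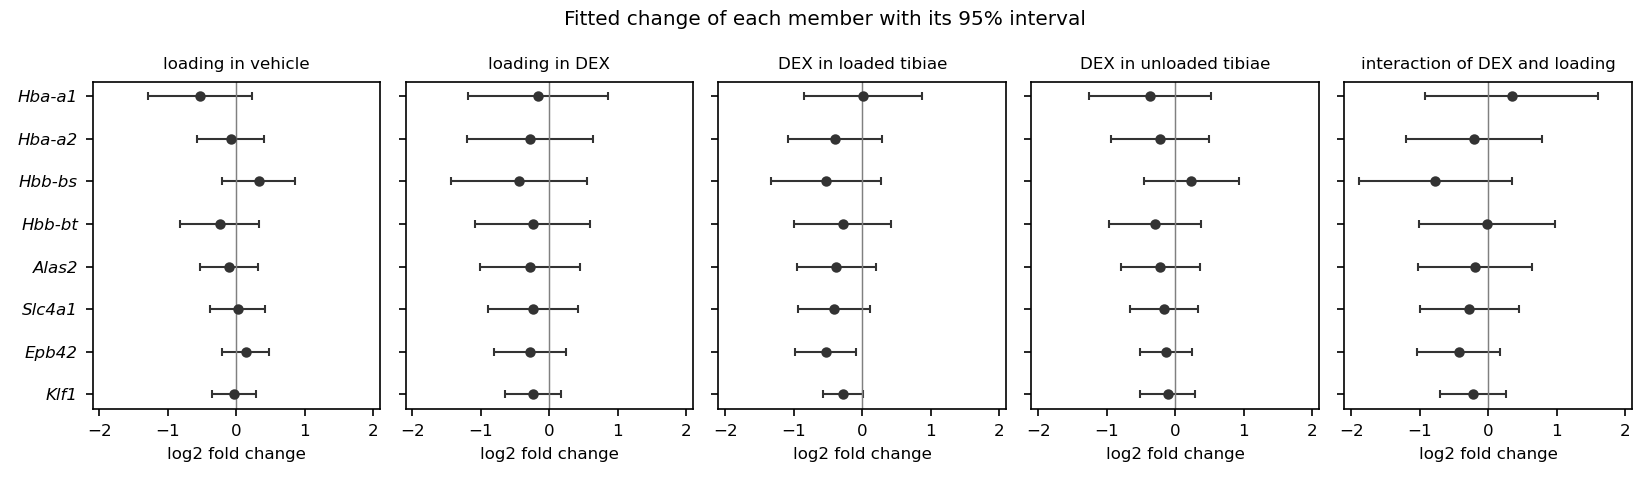
Fitted log2 fold change of each of the 8 erythroid genes (horizontal axis) with its 95% interval, in the 4 comparisons and the interaction. The interval of Epb42 for DEX in loaded tibiae, -0.98 to -0.09, is the only one of 40 that leaves out 0, and no adjusted p is under 0.05.

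Loading in DEX-treated mice repeats the question under the drug. All 8 members had a fitted value below 0, between -0.44 (Hbb-bs) and -0.17 (Hba-a1) on the log2 scale, and 0 of 8 passed the threshold by edgeR or by DESeq2. Over all genes 0% passed with either tool, and 4.25% had an unadjusted p under 0.05 with edgeR, as did 0 of 8 members. Without unloaded DEX replicate 5, edgeR called 39 genes over all, all of them higher, and 0 members. The lowest adjusted p was 0.733, shared by Epb42 and Klf1. Klf1 was measured at 28.2 ± 4.17 CPM (SD, n = 5) after loading and 32.9 ± 8.26 CPM (SD, n = 4) without it, a log2 fold change of -0.24 (standard error 0.188, adjusted p = 0.733). Slc4a1 was measured at 556 ± 165 CPM (SD, n = 5) and 652 ± 209.6 CPM (SD, n = 4), a log2 fold change of -0.24 (standard error 0.303, adjusted p = 0.757). The size of the shift moved with single libraries. The median of the 8 members was -0.26, and it was -0.12 without loaded DEX replicate 4, -0.12 without unloaded DEX replicate 2 and -0.47 without unloaded DEX replicate 5. With the exclusion moved from the unloaded to the loaded DEX replicate 4, the values ran from -0.12 (Hbb-bs) to 0.033 (Hba-a1). With the library set as a covariate the globin copies were at -0.31 (Hba-a1), -0.30 (Hba-a2), -0.41 (Hbb-bs) and -0.29 (Hbb-bt), and in the larger set alone at -0.26, -0.15, -0.21 and -0.14.

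DEX in unloaded tibiae asks what the drug does at rest. Again 0 of 8 members passed the threshold, where 6.84% of all genes did, and 0 of 8 had an unadjusted p under 0.05, where 24.6% of all genes did. The 1351 calls over all genes moved with the fit, from 129 without unloaded DEX replicate 3, 530 without unloaded vehicle replicate 5 and 670 in the larger set alone to 2411 by DESeq2, 2591 with the covariate for background reads, 2639 with the set as a covariate and 2922 with unloaded DEX replicate 4 added. DESeq2 called 0 members. The fitted log2 fold changes ran from -0.37 (Hba-a1) to 0.24 (Hbb-bs), and 7 of 8 were below 0. As a share of all counts, the 4 globin copies took 0.815% ± 0.382% with DEX (SD, n = 4) and 0.749% ± 0.157% with vehicle (SD, n = 5). After TMM they held 7479 ± 3420 and 8485 ± 1665 CPM, so the order of the means turned with the scaling. Hba-a2 was measured at 2857 ± 1376 CPM (SD, n = 4) with DEX and 3329 ± 783 CPM (SD, n = 5) with vehicle, a log2 fold change of -0.22 (standard error 0.326, adjusted p = 0.705). Epb42 was measured at 70.4 ± 19.6 CPM (SD, n = 4) and 77.5 ± 8.47 CPM (SD, n = 5), a log2 fold change of -0.13 (standard error 0.174, adjusted p = 0.668) and a 95% interval of -0.51 to 0.25. Background reads moved with this comparison too, at 789 to 3161 CPM with DEX against 338 to 1238 CPM with vehicle, and with that covariate Hba-a1 was at -1.10 (adjusted p = 0.0532). With the set as a covariate, Hba-a1 was at 0.035, Hba-a2 at -0.12, Hbb-bs at 0.10 and Hbb-bt at -0.059, and in the larger set alone they were at 0.00084, -0.34, -0.058 and -0.13. Without unloaded DEX replicate 5, the lowest library of the group, Hba-a2 was at 0.011, Alas2 at -0.0082 and Slc4a1 at 0.015.

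DEX in loaded tibiae asks what the drug does to bone under load. Of the 8 genes, 7 had a fitted value below 0, and 0 passed the threshold, where 21.3% of all genes passed and 8.35% passed downward. Those 4206 calls became 30 with the covariate for background reads and 2696 without the loaded vehicle library numbered 6. Epb42 had an unadjusted p under 0.05, which is 1 of 8 against 37.2% of all genes. The median log2 fold change of the 8 was -0.39, against 0.004 over all genes tested. The members' median was -0.26 without loaded DEX replicate 4, -0.26 without loaded DEX replicate 5 and -0.21 with the covariate for background reads. It moved the other way, to -0.57 without loaded vehicle replicate 1, -0.56 without loaded DEX replicate 1 and -0.53 without loaded DEX replicate 2. DESeq2 also called 0 members. TMM factors were 0.9995 to 1.41 in DEX_Load and 0.8495 to 0.983 in Vehicle_Load. As a share of all counts, the 4 globin copies took 0.688% ± 0.323% with DEX and 0.726% ± 0.210% with vehicle (SD, n = 5 in each group). After TMM they held 6206 ± 2934 and 7886 ± 2079 CPM. No fit left out such scaling, and its part in the members' shift was not tested.

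Epb42 was measured at 58.4 ± 15.4 CPM (SD, n = 5) with DEX and 87.1 ± 20.8 CPM (SD, n = 5) with vehicle in loaded tibiae, and its call depended on the fit. Its log2 fold change was -0.53 (standard error 0.205, adjusted p = 0.0776), and DESeq2 gave an adjusted p of 0.0511. It passed without the filter on low counts (adjusted p = 0.0412), with all 4 groups in the same edgeR model (adjusted p = 0.0245), without loaded vehicle replicate 1 (adjusted p = 0.0397) and without loaded DEX replicate 2 (adjusted p = 0.039). Over all alternatives its adjusted p ran from 0.0245 to 0.845, the highest with the covariate for background reads.

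Klf1 was measured at 28.2 ± 4.17 CPM (SD, n = 5) with DEX and 35.5 ± 5.42 CPM (SD, n = 5) with vehicle, and its log2 fold change was -0.29 (standard error 0.136, adjusted p = 0.141). It passed in 1 alternative, without loaded DEX replicate 2 (adjusted p = 0.0465). Slc4a1 was measured at 556 ± 165 CPM (SD, n = 5) with DEX and 760.5 ± 179.7 CPM (SD, n = 5) with vehicle, a log2 fold change of -0.41 (standard error 0.241, adjusted p = 0.227). Alas2 had a log2 fold change of -0.38 (standard error 0.266, adjusted p = 0.313), Hba-a2 of -0.40 (standard error 0.319, adjusted p = 0.372), Hbb-bs of -0.53 (standard error 0.374, adjusted p = 0.317) and Hbb-bt of -0.29 (standard error 0.33, adjusted p = 0.547). Hba-a1 stood apart at 0.011, with a 95% interval of -0.85 to 0.87. With the set as a covariate all 8 were below 0, from -0.50 (Epb42) to -0.23 (Hba-a1), and with the larger set alone from -0.48 (Hba-a2) to -0.26 (Klf1). The other globin copies were at -0.44 (Hba-a2), -0.45 (Hbb-bs) and -0.37 (Hbb-bt) with the set, and in the larger set at -0.34 (Hba-a1), -0.34 (Hbb-bs) and -0.28 (Hbb-bt). Background reads moved with this comparison, at 1062 to 8611 CPM in DEX_Load against 228 to 885 CPM in Vehicle_Load, and with that covariate Hbb-bs was at 0.37.

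Whether DEX changed the response to loading was tested as an interaction, the loading difference under DEX minus that under vehicle. None of the 8 members passed by edgeR or DESeq2, 0% of all genes passed by edgeR and 50 genes by DESeq2. Without unloaded DEX replicate 5, edgeR called 54 genes over all, 51 higher and 3 lower, and 0 members, of which 1 had an unadjusted p under 0.05. An unadjusted p under 0.05 was found for 0 of 8 members and for 12.1% of all genes by edgeR. Hbb-bs had the largest value, -0.78 (standard error 0.537, adjusted p = 0.479) on the log2 scale, with a 95% interval of -1.89 to 0.34. Epb42 followed at -0.43 (standard error 0.291, adjusted p = 0.474). Hba-a1 lay on the other side at 0.34 and was at -0.26 with the set as a covariate, where Hba-a2 was at -0.32, Hbb-bs at -0.54 and Hbb-bt at -0.30. In the larger set alone they were at -0.37 (Hba-a1), -0.17 (Hba-a2), -0.32 (Hbb-bs) and -0.18 (Hbb-bt). The groups of no comparison were free of overlap for any member, that is for 0 of 8 genes, where the share over all genes was 1.33% for loading in vehicle, 1.25% for loading in DEX, 10.8% for DEX in unloaded tibiae and 16.5% for DEX in loaded tibiae.

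Other genes of the red cell programme were taken from 8 lists, counted in DEX in loaded tibiae by the same test, by which 12.9% of all genes rose and 8.35% fell. Of their 90 tested genes, 3 rose and 10 fell, and 77 had a fitted value below 0. Without loaded DEX replicate 4 the counts were 2 and 7, where 7.94% of all genes rose and 7.21% fell, and in the larger set alone 2 and 4, where 6.29% rose and 6.78% fell. DESeq2 called 4 higher and 15 lower, where it called 17.5% of all genes higher and 11% lower. Of 12 erythroid transcription factors, 0 rose and 1 fell. The gene that fell was Zfpm1, the GATA cofactor FOG1, at 97.5 ± 32.9 CPM (SD, n = 5) against 159.6 ± 25.1 CPM (SD, n = 5) (log2 fold change -0.67, standard error 0.223, adjusted p = 0.0485). Gata1, the master regulator of the lineage, was measured at 17.4 ± 5.38 CPM (SD, n = 5) and 23.2 ± 2.13 CPM (SD, n = 5) and did not pass (log2 fold change -0.37, standard error 0.18, adjusted p = 0.148).

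Of 14 genes of haem synthesis and transport, 1 rose and 3 fell. The riser was Alas1, the form of the first enzyme that is used outside red cells, at 128 ± 41.4 CPM (SD, n = 5) against 86.1 ± 2.04 CPM (SD, n = 5) (log2 fold change 0.62, standard error 0.191, adjusted p = 0.0375). Alad, the next enzyme of the pathway, fell with a log2 fold change of -0.72 (standard error 0.226, adjusted p = 0.0396), and Slc25a39, a mitochondrial carrier, with one of -0.60 (standard error 0.172, adjusted p = 0.0287). Alas1 also rose in unloaded tibiae, where it was the 1 of 14 that passed (log2 fold change 0.86, standard error 0.191, adjusted p = 0.0234). Alas1 and Alas2 thus differed in call in both DEX comparisons, and the difference between the 2 genes was itself not tested.

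Of 12 genes of iron uptake and storage, 0 rose and 2 fell. Steap3, the ferric reductase of erythroblast endosomes, was at 21.2 ± 3.68 CPM (SD, n = 5) against 37.4 ± 7.64 CPM (SD, n = 5) (log2 fold change -0.78, standard error 0.16, adjusted p = 0.00842), and Aco1, an iron-responsive RNA-binding protein, had a log2 fold change of -0.44 (standard error 0.134, adjusted p = 0.0346). Tfrc, the transferrin receptor, did not pass at -0.32 (standard error 0.205, adjusted p = 0.269). Of 19 genes of the red cell membrane and skeleton, 0 rose and 1 fell, Rhd, a subunit of the Rh complex, with a log2 fold change of -0.80 (standard error 0.22, adjusted p = 0.0245). Of 10 red cell enzymes 2 fell, Blvrb (biliverdin reductase B) with a log2 fold change of -0.61 (standard error 0.162, adjusted p = 0.022) and Prdx2 (peroxiredoxin 2) with one of -0.57 (standard error 0.179, adjusted p = 0.0394). Of 12 reticulocyte maturation genes 1 fell, Trim58, a ubiquitin ligase, with a log2 fold change of -0.85 (standard error 0.241, adjusted p = 0.027).

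Of 10 genes of erythropoietin receptor signalling, 2 rose and 0 fell. Cish, a feedback inhibitor that STAT5 induces downstream of many cytokine receptors, was at 20.7 ± 6.20 CPM (SD, n = 5) against 7.04 ± 2.51 CPM (SD, n = 5) (log2 fold change 1.61, standard error 0.259, adjusted p = 0.00267). Erfe, erythroferrone, the hormone that erythroblasts release to lower hepcidin and that muscle also makes, was at 5.94 ± 3.29 CPM (SD, n = 5) against 2.64 ± 0.555 CPM (SD, n = 5) (log2 fold change 1.21, standard error 0.387, adjusted p = 0.0418). Epor, the receptor itself, did not pass at -0.46 (standard error 0.248, adjusted p = 0.193). Other globin genes were mostly too low to test, with 1 of 7 tested and 0 called.

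The median log2 fold change in DEX in loaded tibiae was between -0.43 and -0.26 for 6 of these lists, and -0.024 for the erythropoietin receptor list. Without loaded DEX replicate 4 the same 6 lists were at -0.29 to -0.14 and the receptor list at 0.025, in the larger set alone at -0.31 to -0.16 and 0.040, and with the covariate for background reads at -0.14 to 0.14 and 0.45. Several of these calls were close to the threshold. Across 22 alternatives, Steap3 and Cish kept their call in 21, Blvrb and Rhd in 18, Trim58 in 16, Alad and Slc25a39 in 14, Zfpm1 and Aco1 in 11, Prdx2 in 10, and Erfe and Alas1 in 9. With the covariate for background reads, which were at 1062 to 8611 CPM in DEX_Load and 228 to 885 CPM in Vehicle_Load, 0 of the 90 genes were called, and Zfpm1 was at -0.0014 and Trim58 at -0.045.

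In unloaded tibiae 3 of the 90 genes rose and 1 fell by edgeR. DESeq2 called 6 higher and 1 lower, where it called 4.76% of all genes higher and 7.46% lower. In the larger set alone 0 passed by edgeR, with 9 at an unadjusted p under 0.05. Erfe also rose in unloaded tibiae by edgeR, with 7.05 ± 2.81 CPM (SD, n = 4) against 2.32 ± 0.826 CPM (SD, n = 5) (log2 fold change 1.61, standard error 0.344, adjusted p = 0.0208). Socs3, another feedback inhibitor of cytokine receptors, had a log2 fold change of 0.89 (standard error 0.236, adjusted p = 0.0428). Erfe, Socs3, Tmod1 and Alas1 each lost the call without unloaded DEX replicate 3 and in the larger set alone. Socs3 lost it in 10 of 21 alternatives, Erfe in 5 of 20, Alas1 in 4 of 21 and Tmod1 in 3 of 21. Tmod1, tropomodulin 1, which caps actin in red cells and in muscle, fell with a log2 fold change of -0.90 (standard error 0.191, adjusted p = 0.0202). Skeletal muscle genes lay lower in the same comparison, with 0 of 10 past the threshold, a median log2 fold change of -1.84 and sums of 2784 to 20381 CPM against 9457 to 44547 CPM, and their part in the Tmod1 and Erfe values was not tested. Over all genes 2.86% rose and 3.99% fell in this comparison, a balance that turned to 7.72% and 5.41% with the covariate for background reads and to 7.34% and 6.03% with the set as a covariate, and was 0.75% and 2.51% in the larger set alone. No gene of the transcription factor, iron, reticulocyte, enzyme or other globin lists passed by edgeR. Of the single genes of the lineage, the log2 fold changes in unloaded tibiae were -0.058 (Gata1), 0.022 (Tfrc) and 0.10 (Epor), and none of these passed.

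In both loading comparisons and in the interaction 0 of the 90 genes of the red cell lists passed by edgeR or by DESeq2. With an unadjusted p under 0.05 by edgeR, 3 were found for loading in vehicle, 1 for loading in DEX and 5 for the interaction. The median log2 fold change of the 8 red cell lists ran from -0.041 (enzymes) to 0.15 (iron) for loading in vehicle, beside -0.0021 over all genes. For loading in DEX it ran from -0.31 (other globin genes, 1 gene) to -0.20 (iron), beside 0.021 over all genes, and with the exclusion moved to loaded DEX replicate 4 from -0.33 to -0.028. Gata1 was measured at 17.4 ± 5.38 CPM (SD, n = 5) after loading and 20.2 ± 3.98 CPM (SD, n = 4) without it under DEX (log2 fold change -0.22, standard error 0.228, adjusted p = 0.736), and at 23.2 ± 2.13 CPM (SD, n = 5) and 21.1 ± 3.01 CPM (SD, n = 5) under vehicle (log2 fold change 0.11, standard error 0.125, adjusted p = 0.771). Both differences in Gata1 lay within the spread between libraries.

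**Figure D4:**
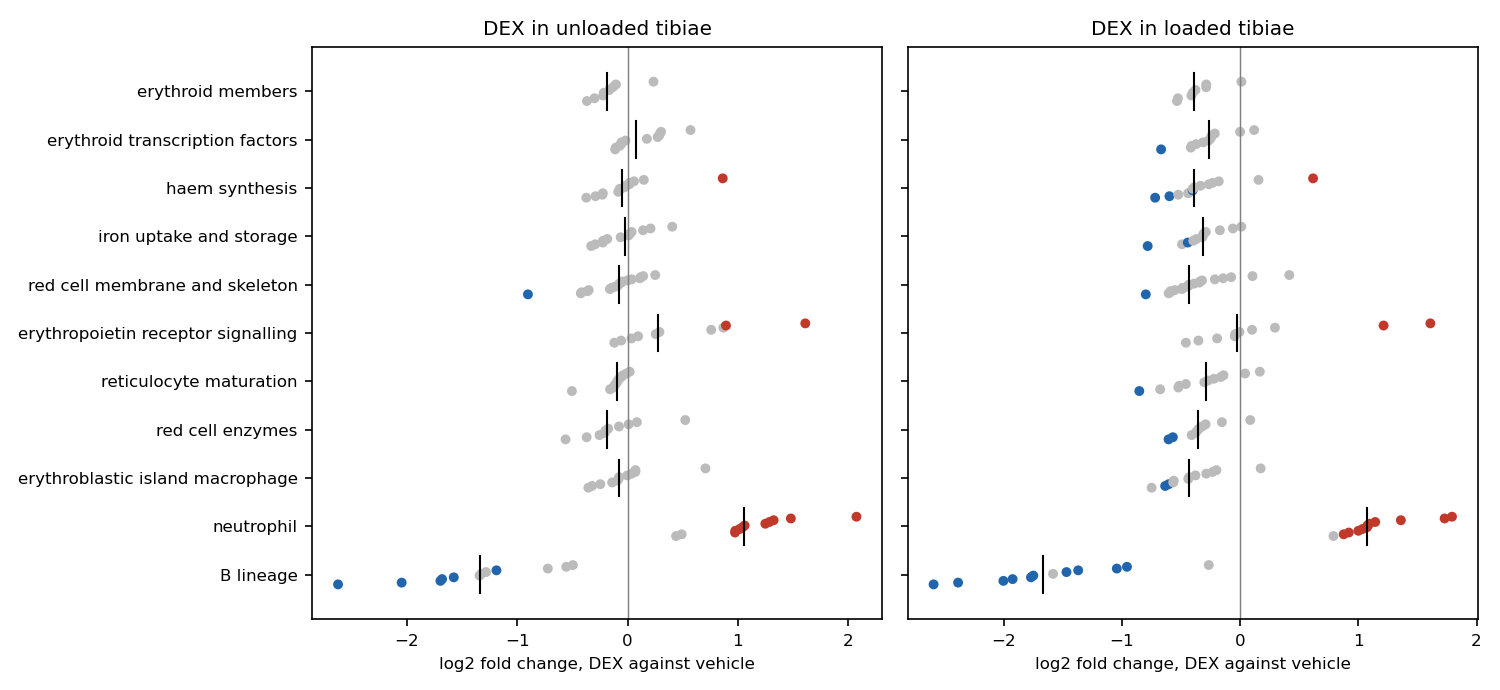
Log2 fold change of DEX against vehicle (horizontal axis) for each tested gene of 11 lists in unloaded (left) and loaded (right) tibiae, where red points rose, blue points fell, grey points did not pass the threshold and the black bar is the median of the list. The erythroid members are all grey, while 11 of 12 neutrophil genes are red and 10 of 12 B lineage genes are blue in loaded tibiae.

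Markers of other marrow and bone cells moved with the same contrast. In loaded tibiae, where 12.9% of all genes rose and 8.35% fell, 11 of 12 neutrophil genes rose and their summed level was 8179 to 19646 CPM with DEX against 4661 to 6939 CPM with vehicle. Of 12 B lineage genes, 10 fell, with sums of 76.9 to 239 CPM against 299 to 523 CPM. Of 12 osteoblast and osteocyte genes, 10 fell, with sums of 5273 to 24453 CPM against 65258 to 96639 CPM. With the covariate for background reads, which left 4 genes higher and 26 lower over all, the calls were 1 of 12 neutrophil genes (Mmp8), 2 of 12 B lineage genes (Rag1 and Vpreb3) and 0 of 12 osteoblast and osteocyte genes. Without the loaded vehicle library numbered 6, 7 of 12 neutrophil genes were called. Of 12 macrophage genes of the erythroblastic island, the marrow niche in which erythroblasts mature, 0 rose and 2 fell, Adgre1 (F4/80) with a log2 fold change of -0.63 (standard error 0.146, adjusted p = 0.013) and C1qc (complement C1q) with one of -0.60 (standard error 0.166, adjusted p = 0.0243), and the list summed to 467 to 1057 CPM against 866 to 1134 CPM. Of 22 alternatives, Adgre1 lost its call in 3 and C1qc in 5, in both cases with the covariate for background reads among them. Of 11 megakaryocyte and platelet genes, which share a progenitor with red cells, 0 passed by edgeR and 0 had an unadjusted p under 0.05. No gene of these lists was at 0 throughout a group, and the part of such shifts in the erythroid values was not tested. Of 5 genes known to be induced by glucocorticoids, 2 rose, Zbtb16 (log2 fold change 1.01, standard error 0.213, adjusted p = 0.0093) and Fkbp5 (log2 fold change 0.87, standard error 0.175, adjusted p = 0.00777), both of which lost their calls with the covariate for background reads. The median of the 5 was 0.098 and the lowest -0.56. In unloaded tibiae Zbtb16 was at 57.7 ± 13.6 CPM (SD, n = 4) with DEX and 61.9 ± 11.3 CPM (SD, n = 5) with vehicle.

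In unloaded tibiae the same lists gave 10 of 12 neutrophil genes higher, 6 of 12 B lineage genes lower and 7 of 12 osteoblast and osteocyte genes lower. All lists but the members had 30 calls among 176 genes in this comparison, against 6.84% of all genes, and 10 in the larger set alone (5 higher and 5 lower), against 3.26%. DESeq2 made 44 calls in these lists, 21 higher and 23 lower, against 12.2% of all genes. The largest changes were Mmp8 (2.08) and Prtn3 (1.48) among neutrophil genes, Rag1 (-2.62) and Vpreb3 (-2.05) among B lineage genes, and Bglap2 (-3.11) and Bglap (-2.95) among bone genes, on the log2 scale. Of 5 glucocorticoid-induced genes 1 fell, Sgk1 (-0.63), and of 12 proliferation genes 2 rose, Plk1 (0.52, adjusted p = 0.0498) and Aurka (0.47, adjusted p = 0.0414). Of 21 alternatives, Plk1 lost its call in 11 and Aurka in 14, and both lost it in the larger set alone. Sgk1 lost its call in 6 of the 21, the larger set alone among them. Sgk1, Prtn3, Vpreb3, Bglap and Bglap2 lost theirs without unloaded DEX replicate 3, while Mmp8 and Rag1 kept theirs in 21 of 21. In loaded tibiae the corresponding largest changes were Mmp8 (1.79), Lcn2 (1.73), Rag1 (-2.59), Vpreb3 (-2.39), Bglap (-3.47) and Bglap2 (-2.98), and of 10 skeletal muscle genes 1 rose, Myh1 (1.34), which lost its call in 13 of 22 alternatives. Lcn2, Bglap and Bglap2 lost theirs with the covariate for background reads.

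The members varied together from library to library. Over the 20 libraries the Spearman correlation of their log2 CPM had a median of 0.79 over 28 pairs and ran from 0.19 (Hba-a1 with Hbb-bs) to 0.96 (Hba-a2 with Alas2). Within the 13 libraries with a high Hbb-bs to Hbb-bt ratio it ran from 0.82 to 0.99, with a median of 0.95, and Hba-a1 with Hbb-bs was at 0.93. These libraries share the normalization and the treatments, and the values are a description.

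Outside the members, the genes whose log2 CPM was most like the mean of the members' standardised values over 20 libraries included Car2 (Spearman 0.96), Ermap (0.93), Tfdp2 (0.91), Gfi1b (0.90), Gypc (0.90), Itga4 (0.90), Ctse (0.89), Eif2ak1 (0.89) and Brca2 (0.89). Of these, Car2 (carbonic anhydrase 2), Ermap, Gypc and Gfi1b stood in the red cell lists. Such likeness was not limited to red cell genes. By list, the median was 0.79 for the membrane and skeleton, 0.78 for red cell enzymes and 0.76 for haem synthesis, then 0.69 for B lineage and 0.58 for osteoblast and osteocyte genes, above reticulocyte maturation (0.56), erythroid transcription factors (0.54) and iron (0.46). The median over 22626 genes compared was -0.03, and 90 genes had a value over 0.8.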

How the data were processed

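Total RNA of frozen, pulverised tibiae was made into libraries with the SMARTer Stranded Total RNA Pico kit and sequenced. The authors aligned reads and deposited RSEM expected counts per gene, estimated and not normalised (RSEM 1.2.28, STAR 2.7.10a and GRCm38, per the submitters' processing notes). Values were rounded to whole numbers here. All 54446 rows name a gene, and 54409 identifiers matched a symbol.

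Each comparison was fitted on its own groups, and the interaction on all 4, with edgeR 4.0.16 (R 4.3.3, limma 3.58.1): filterByExpr, TMM, glmQLFit and glmQLFTest, with Benjamini-Hochberg adjustment over all genes tested and a threshold of 0.05. Intervals are at 95%. Levels are CPM over 22659 genes kept in all 20 libraries. Log2 CPM used a prior count of 2. Groups came from the labels. The labels do not say whether replicates are separate mice, so p-values measure the spread between these samples. Tests on simulated counts gave 200 genes a log2 change of 2 in each comparison. Of these, 199 (loading in vehicle, 18184 genes), 199 (loading in DEX, 23698) and 171 (interaction, 23563) were recovered. For DEX against vehicle the numbers were 200 (DEX with loading, 22080) and 199 (DEX without loading, 19784). Calls among unchanged genes were 13 (loading in vehicle), 13 (loading in DEX), 4 (DEX with loading), 7 (DEX without loading) and 1 (interaction). Recovery of smaller changes, such as those fitted for the members, was not tested.

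The members and lists were chosen with earlier results of these data known. Named genes are the members, the 2 largest rises and falls past the threshold of each list, a few single genes of the lineage such as Gata1, Tfrc and Epor, and the 10 genes most like the members. Some genes that this rule names are not reported here. Alternatives were DESeq2 1.42.0, its size factors, the members left out of normalization, other filters (at least 1 count in all, or 10 per library), a block for the replicate number, other choices of DEX replicate 4, leaving out each library, all groups in the same model, and a covariate for background reads. The library set (a ratio of mt-Nd2 to mt-Nd1 counts above or below 0.65) and the block libraries without the block were added after seeing the data. In 2 libraries, 1 in each vehicle group, the column is numbered 6, which no label is, so it was assigned to its group only and left out of the block and the check of pairing.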

Additional observations from a re-analysis of the deposited data

Results flagged for a closer look

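Of 68 groups of values examined, 3 held a library farther from the others than Dixon's 95% critical value allows. Chance flags about 1 in 20 groups. Klf1 was at 25.7 CPM in unloaded vehicle replicate 4, where the other 4 were at 36.4 to 40.2 CPM, and the gap took 0.738 of the range. Klf1 was at 20.6 CPM in unloaded DEX replicate 5, where the other 3 were at 35.6 to 37.8 CPM, and the gap took 0.874 of the range. The ratio of Hba-a1 to Hba-a2 counts was 0.834 in unloaded DEX replicate 1, where the other 3 were at 0.581 to 0.605, and the gap took 0.903 of the range. That library is the only one of its group in the smaller library set. Unloaded DEX replicate 4 is left out of these values, and with it the gaps in DEX_Ctrl took 0.336 (Klf1) and 0.611 (the ratio) of the range, neither past the limit.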

How the results depend on the processing

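No member was called in any comparison, and this count was the same in 115 of 119 alternatives. Some alternatives are the same fit reached by different rules, such as leaving out loaded DEX replicate 4. All tallies of alternatives in this report count such a fit more than once. The other 4 concerned DEX in loaded tibiae, where 1 member (Epb42) was called without the filter on low counts and 1 (Epb42) with all 4 groups in the same model, and where leaving out 1 library at a time gave 0 to 2. The count was 1 without loaded vehicle replicate 1 and 2 (Epb42 and Klf1) without loaded DEX replicate 2. In these fits 20.2% (no filter), 35.7% (all 4 groups), 13.8% and 28% of all genes were called. The cause was not tested. Of 952 alternatives for the members' log2 fold changes, 880 kept the sign and the side of the threshold, 5 passed it and 67 turned the sign of a value that had not passed. For loading in vehicle the turned values were, in the larger set alone, Hba-a1 0.12, Hba-a2 0.025, Hbb-bt 0.039, Alas2 0.072 and Klf1 0.17, with the covariate for background reads Hbb-bt 0.017, Alas2 0.0055 and Klf1 0.056, with the library set as a covariate Hbb-bt 0.053, Alas2 0.0014 and Klf1 0.057, and without the filter Klf1 0.016. For loading in DEX they were Hba-a1 0.033 and Hbb-bt 0.014 with the exclusion moved from the unloaded to the loaded DEX replicate 4. For DEX in loaded tibiae Hba-a1 was at -0.030 with the members left out of the normalization, -0.19 without the filter, -0.11 with the replicate block, -0.074 with all 4 groups, -0.62 with the background covariate, -0.23 with the library set and -0.34 in the larger set alone, and the background covariate also turned Hbb-bs (0.37) and Epor (0.26). For DEX in unloaded tibiae Hba-a1 was at 0.035 with the library set and, in the larger set alone, Hba-a1 was at 0.00084 and Hbb-bs at -0.058. In the interaction Hba-a1 was at -0.24 with the background covariate, -0.26 with the library set and -0.37 in the larger set alone. With the same move, the interaction was 0.051 for Hba-a2, 0.25 for Hbb-bt and 0.020 for Alas2. Hbb-bt was at 0.082 with at least 10 counts in every library, 0.22 with the replicate block, 0.16 in the same libraries without it, 0.078 with all 20 libraries and 0.13 with neither DEX replicate 4.

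Leaving out 1 library at a time turned the sign of some values. For loading in vehicle the ranges were -0.18 to 0.068 (Hba-a2), -0.20 to 0.040 (Alas2), -0.066 to 0.17 (Slc4a1) and -0.13 to 0.062 (Klf1). Hba-a1 ran from -0.62 to 0.18 for loading in DEX and from -0.46 to 0.18 for DEX in loaded tibiae. For DEX in unloaded tibiae the ranges were -0.45 to 0.011 (Hba-a2), -0.063 to 0.44 (Hbb-bs), -0.31 to 0.015 (Slc4a1), -0.29 to 0.014 (Epb42) and -0.20 to 0.038 (Klf1). In the interaction they were -0.15 to 0.69 (Hba-a1) and -0.32 to 0.20 (Hbb-bt). Of 886 alternatives for the other listed genes, 704 gave the same call, 179 lost it, 2 gained it and 1 (Epor) turned the sign.

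The unloaded tibia is the contralateral limb, but the labels do not say that a shared number marks a mouse. Over all genes, deviations of same-numbered loaded and unloaded libraries correlated at -0.30 to 0.25 with vehicle and 0.02 to 0.36 with DEX, not over 0.1 in every pair, so the numbers were not taken to pair libraries. Differently numbered libraries correlated at -0.40 to 0.38 with vehicle and -0.55 to 0.64 with DEX. Over the 8 members the correlations of same-numbered libraries were -0.74 to 0.68 with vehicle and 0.69 to 0.89 with DEX. Those of differently numbered libraries were -0.88 to 0.77 and -0.94 to 0.94, so the members do not show a pairing either. With the replicate number as a block 0 members were called in each comparison, and the members' values for loading in DEX were -0.14 to -0.029, against -0.19 to -0.058 in the same libraries without it. In the DEX comparisons the block joined DEX and vehicle libraries of the same number, which come from mice given different injections. It is no pairing by mouse there. Over all genes the block gave 2326 calls for DEX in loaded tibiae, against 1120 in the same libraries without it and 4206 in all libraries of the comparison. It gave 520 for DEX in unloaded tibiae, against 566 and 1351. Few libraries a group and shallow libraries both limit the precision, and the division of reads between globin copies could not be checked from counts.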
